A study of Mus musculus with 8 samples.

Results

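The genes described here are 31 SR splicing factors, SR-related proteins and the kinases that phosphorylate them, out of 54532 gene identifiers in the count table, and each of the 31 symbols matched 1 row. They comprise 4 CLK kinases, 2 SRPK kinases, 10 SR proteins of the Srsf series, 2 Tra2 proteins, 3 LUC7-like proteins and 10 other RS-rich or nuclear speckle proteins. The members were chosen by their shared function with the fold changes and calls of ASC against sham already known, so their fold changes and counts are a description of that comparison and no independent evidence of a direction. RNA came from lens capsules of wild-type C57BL/6 mice aged 6 to 8 weeks. The 4 ASC libraries are from eyes whose anterior capsule was pierced with a 26-gauge needle through the cornea, a model the submitters call injury-induced ASC and describe as fibrotic cataract, and the 4 sham libraries are from eyes in which the cornea alone was cut. All capsules were taken 7 days after surgery, and the number of capsules or mice pooled per library is not stated in the labels; each library is called a biological replicate there.

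SR proteins bind exons through an RNA recognition motif and recruit the splicing machinery through a tail rich in arginine-serine dipeptides. SRPK kinases phosphorylate that tail mainly in the cytoplasm, which allows import into the nucleus, and CLK kinases phosphorylate it further in the nucleus, which releases the proteins from nuclear speckles. Many genes of this group regulate their own transcripts through poison exons or retained introns, so the total count of a gene does not separate its productive from its unproductive forms.

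Library totals lay between 14420494 and 21141582 counts, and 15857 genes were tested. All 31 members passed the filter on low counts, with 320 to 9293 counts per library and gene. The lens epithelial genes Pax6 and Foxe3 were present in every library (386 to 483 and 265 to 393 CPM, counts scaled to the TMM-adjusted library size). Both are expressed in the lens epithelium that the capsule carries. The 8 lens epithelial markers (8 tested, 1 called lower) summed to 31079 to 41815 CPM in sham and 31165 to 46715 CPM in ASC. The gene called lower, named after its values were seen, was Mab21l1, a gene of eye development. It had 133 to 175 CPM in sham and 66.3 to 82.1 CPM in ASC. Pax6, Foxe3 and Mab21l1 made up a small part of this sum. The list also holds the crystallin Cryab, so the sum need not follow epithelial content. Summed red cell markers (5 of 7 tested, 0 called, none at 0 in all libraries) did not overlap between groups, at 40.1 to 62.8 CPM in sham and 73.9 to 370.2 CPM in ASC. Pigment markers (7 of 7 tested, 0 called) summed to 89.2 to 255 CPM in sham and 181 to 656 CPM in ASC, leukocyte markers (11 of 12, 0 called) to 32.2 to 89.0 and 53.9 to 216 CPM, and lens fibre markers (13 of 13, 2 called higher, Cryga and Cryge) to 47215 to 87805 and 60447 to 132589 CPM. Corneal epithelial markers (6 of 10 tested, 3 called higher) summed to 389 to 606 CPM in sham and 354 to 958 CPM in ASC. The 3 genes called were the keratins Krt5, Krt12 and Krt6a, at up to 1.73, 0.983 and 0.562 CPM in sham. In ASC they had 4.02 to 16.7, 2.93 to 6.31 and 0.923 to 1.98 CPM. Each keratin was separate between groups, and most of the summed CPM came from other genes of the list. Keratocyte markers (3 of 5, 0 called) summed to 502 to 668 CPM in sham and 591 to 1264 CPM in ASC. For the keratocyte, pigment, leukocyte and lens fibre sums alike, 3 of the 4 ASC libraries lay above every sham library. Retinal markers (7 of 7, 0 called) lay at 1023 to 4282 and 2008 to 3818 CPM, and endothelial markers (3 of 4, 0 called) at 5.28 to 16.2 and 4.15 to 13.1 CPM. The part of these tissues in the results below was not tested. In a tissue sample, fewer cells of a type and less RNA per cell cannot be told apart.

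Promoters of 3 genes are shown, those of Tra2a and Luc7l3, which differed between groups, and of Tra2b, a close relative of Tra2a that did not pass the test. Tra2a and Tra2b encode sister splicing activators, and Luc7l3 encodes a U1-associated protein. The sequences are RefSeq windows of GRCm38.p6, read 5′ to 3′ on the gene's strand and ending just before the annotated start; that of Luc7l3 is shown without its last 25 bases, which lie in an exon in GENCODE M21. Capitals mark matches on either strand to any of the 7 motifs searched (the CCAAT box CCAAT, the GC box GGGCGG, the cAMP response element TGACGTCA, the ETS core CCGGAAG, the E-box CACGTG, the AP-1 motif TGANTCA and the TATA box TATAAA).
Tra2a, chr6:49264053-49264302, minus strand: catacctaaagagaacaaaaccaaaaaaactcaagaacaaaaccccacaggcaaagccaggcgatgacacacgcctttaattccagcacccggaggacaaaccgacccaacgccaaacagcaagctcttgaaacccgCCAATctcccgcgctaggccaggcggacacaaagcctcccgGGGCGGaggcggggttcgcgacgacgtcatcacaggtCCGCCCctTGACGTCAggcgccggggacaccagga
Tra2b, chr16:22266006-22266255, minus strand: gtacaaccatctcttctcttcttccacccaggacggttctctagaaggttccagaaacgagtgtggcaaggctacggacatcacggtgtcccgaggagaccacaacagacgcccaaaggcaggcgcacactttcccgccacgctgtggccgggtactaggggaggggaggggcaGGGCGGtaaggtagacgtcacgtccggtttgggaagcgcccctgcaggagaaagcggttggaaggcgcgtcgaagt
Luc7l3, chr11:94321989-94322213, minus strand: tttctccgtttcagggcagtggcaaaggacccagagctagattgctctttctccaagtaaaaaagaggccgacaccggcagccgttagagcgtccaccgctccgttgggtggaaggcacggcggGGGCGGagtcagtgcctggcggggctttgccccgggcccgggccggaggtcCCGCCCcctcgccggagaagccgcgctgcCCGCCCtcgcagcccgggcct
The Tra2a window held 1 cAMP response element, 1 CCAAT box and 2 GC boxes. The Tra2b window held 1 GC box and the Luc7l3 window 3, and neither held the other motifs. Windows of 250 bases were matched for 28 of the 31 members, 39 windows in all, with no match for Clk1, Luc7l and U2af2. The cAMP response element was in 2 of the 39, those of Tra2a and Clk4, against 1.55% of all 32851 windows. GC boxes were in 22 (56.4%) against 32.7% of all windows, and the ETS core in 12 (30.8%) against 6.91%. The CCAAT box was in 12 (30.8%) against 33.8%, the TATA box in 3 (7.69%) against 12.4% and the E-box in 1 (2.56%) against 6.02%. Several members have more than 1 window, and such windows can overlap. Member windows were richer in G and C than all windows (median 61.6% against 52.4%). The AP-1 motif was in 0 of the 39, against 6.75% of all windows, which says only that these letters are not in these windows.

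In the comparison of ASC with sham, 3 of the 31 members fell and 0 rose in edgeR's quasi-likelihood test with Benjamini-Hochberg adjustment over all tested genes at a threshold of 0.05. They were Tra2a, which fell by 32.4%, Clk1, which fell by 30.2%, and Luc7l3, which fell by 28.7%. DESeq2 called these 3 and Srsf1, and limma-voom called the same 3. Without sham 2, 0 members passed in edgeR, and 56 of all genes did. Over all tested genes 0.391% were called lower and 0.631% higher. Among the 5842 tested genes at least as abundant as the least abundant member, 0.411% were called lower, 7.63% were lower at an unadjusted p under 0.05 and 46.1% had a log2 fold change below 0. At an unadjusted p under 0.05, 12 members were lower and 0 higher, where 7.9% and 6.82% of all tested genes were. The log2 fold change was below 0 for 24 of the 31 members, against 48.6% of all tested genes, and its median was -0.14 against 0.01. Because the members were chosen with this contrast in view, nothing is read from these shares.

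**Figure D1:**
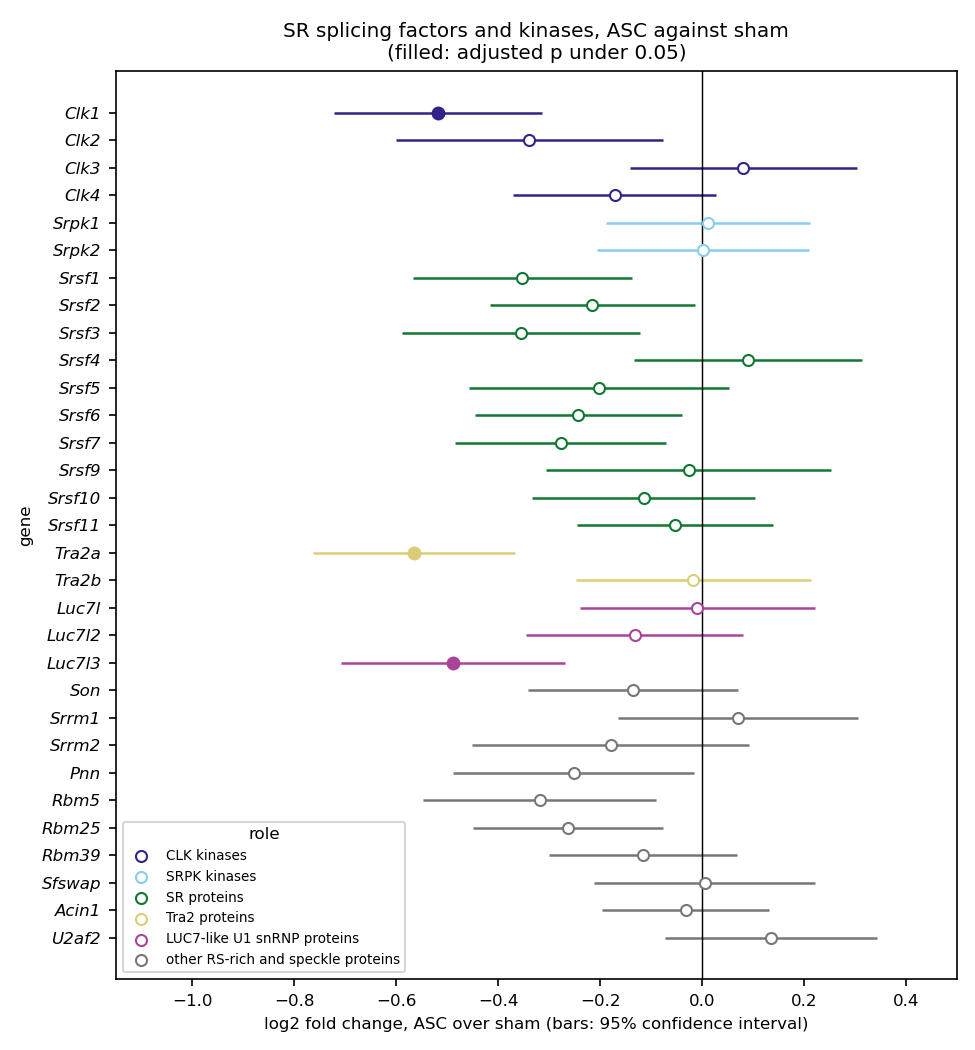
Log2 fold change of ASC over sham (horizontal axis) for each of the 31 genes (vertical axis), coloured by role. Bars are 95% confidence intervals calculated from the F statistic of edgeR's test, and filled points passed an adjusted p of 0.05. Tra2a, Clk1 and Luc7l3 lie furthest to the left, between -0.57 and -0.48, and the SRPK kinases lie at 0.

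Tra2a, an SR-like activator that binds GAA-rich exonic enhancers, had the largest difference of the list. It was measured at 90.3, 104.0, 94.2 and 101.4 CPM in sham 1 to 4 and at 69.5, 66.3, 69.5 and 58.3 CPM in ASC 1 to 4. Every ASC library lay below every sham library, and ASC 4 was the lowest. Tra2a fell by 0.56 on the log2 scale (SE 0.09, 95% confidence interval -0.76 to -0.37, adjusted p = 0.0138 in edgeR). Its edgeR call was lost without sham 2 (adjusted p = 0.0524) and without ASC 1 and ASC 4 together (adjusted p = 0.112). ASC 1 and ASC 4 had the most red cell RNA, and without them 42 of all genes passed, against 162 in the main fit. Over all alternatives the log2 fold change of Tra2a was -0.69 to -0.51. Its sister gene Tra2b had 67.7 ± 9.74 CPM in the sham libraries and 66.9 ± 3.56 CPM in ASC (SD, n = 4 each), with a log2 fold change of -0.02 and an interval of -0.25 to 0.21.

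The ratio of Tra2a to Tra2b within a library does not depend on how libraries are scaled. Per kb of exon it was 1.89, 1.69, 2.09 and 2.07 in sham 1 to 4 and 1.29, 1.30, 1.42 and 1.22 in ASC 1 to 4. The groups did not overlap. Since Tra2a was known to differ and Tra2b not, this describes the same difference on another scale, and no test was made of the ratio.

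Clk1, a nuclear kinase of SR proteins whose own transcript is known to retain introns, was the most abundant CLK gene. Its levels were 118.0, 144.9, 133.6 and 127.8 CPM in sham 1 to 4 and 94.8, 88.5, 98.5 and 84.2 CPM in ASC 1 to 4. The groups were separate, and ASC 4 was again the lowest. Clk1 fell by 0.52 on the log2 scale (SE 0.09, interval -0.72 to -0.31, adjusted p = 0.0254 in edgeR). It kept its call without sham 1 or ASC 2 and lost it when any 1 of the other 6 libraries was removed (adjusted p of 0.079 at most; sham 2, sham 3 and sham 4, and ASC 1, ASC 3 and ASC 4), and without ASC 1 and ASC 4 together (adjusted p = 0.18). With the replicate number as a block it missed the threshold as well (adjusted p = 0.0505).

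The other CLK kinases did not pass. Clk2 had 26.0 to 36.8 CPM in the sham libraries and 23.4 to 28.5 CPM in ASC, with a log2 fold change of -0.34 (SE 0.12, adjusted p = 0.222). Clk4, the closest relative of Clk1, had 56.2 to 57.8 CPM in the sham libraries and 44.5 to 57.1 CPM in ASC (log2 fold change -0.17, interval -0.37 to 0.03). Clk3 was at 0.08 (interval -0.14 to 0.30). The ratio of Clk1 to Clk4 per kb was 1.47 to 1.84 in sham and 1.23 to 1.42 in ASC, without overlap. Since Clk1 was known to differ and Clk4 was not called, this restates the same difference, and the ratio was not tested.

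The SRPK kinases, which act on the same tails in the cytoplasm, had the smallest median difference of any role (0.01). Srpk2 was measured at 60.6, 52.8, 58.6 and 47.9 CPM in sham 1 to 4 and at 59.0, 55.4, 53.1 and 52.6 CPM in ASC 1 to 4, with a log2 fold change of 0.00 (interval -0.21 to 0.21). Srpk1 was at 0.01 (interval -0.19 to 0.21). The groups overlapped for both genes, and the intervals leave room for a change of up to 0.21 in either direction.

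Luc7l3, one of 3 relatives of the yeast U1 snRNP protein Luc7, which takes part in choosing the 5′ splice site, had 149.1, 154.6, 157.9 and 157.9 CPM in sham 1 to 4. In ASC 1 to 4 it had 108.3, 125.1, 115.7 and 92.5 CPM. The sham libraries lay close together and above all ASC libraries. Luc7l3 fell by 0.49 on the log2 scale (SE 0.10, interval -0.71 to -0.27, adjusted p = 0.0426 in edgeR). Only the removal of ASC 2 left this call in place, and removing any of the other 7 libraries, the 4 of sham or ASC 1, ASC 3 and ASC 4, ended it, with an adjusted p of 0.109 at most (0.249 without ASC 1 and ASC 4 together). Scaling by library totals also ended it (adjusted p = 0.0598, log2 fold change -0.61), as did the replicate number as a block (adjusted p = 0.0736).

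Its relatives showed no such separation. Luc7l2, the most abundant of the 3 by CPM, was at 178.8, 166.6, 143.1 and 156.6 CPM in sham 1 to 4 and 156.6, 140.7, 154.9 and 136.3 CPM in ASC 1 to 4 (log2 fold change -0.13, interval -0.35 to 0.08). Of the exon length of Luc7l2, 18.9% is shared with a gene on the opposite strand in the GENCODE M21 annotation, and the strand setting of the counting is not stated in the labels. Luc7l was at -0.01 (interval -0.24 to 0.22). The ratio of Luc7l3 to Luc7l per kb was 1.59, 2.18, 2.14 and 2.12 in sham 1 to 4 and 1.43, 1.56, 1.38 and 1.30 in ASC 1 to 4, with sham 1 close to the highest ASC library. The ratio of Luc7l3 to Luc7l2 overlapped, at 1.39 to 1.83 in sham and 1.13 to 1.48 in ASC. Both ratios were formed with Luc7l3 known to differ, and neither was tested.

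**Figure D2:**
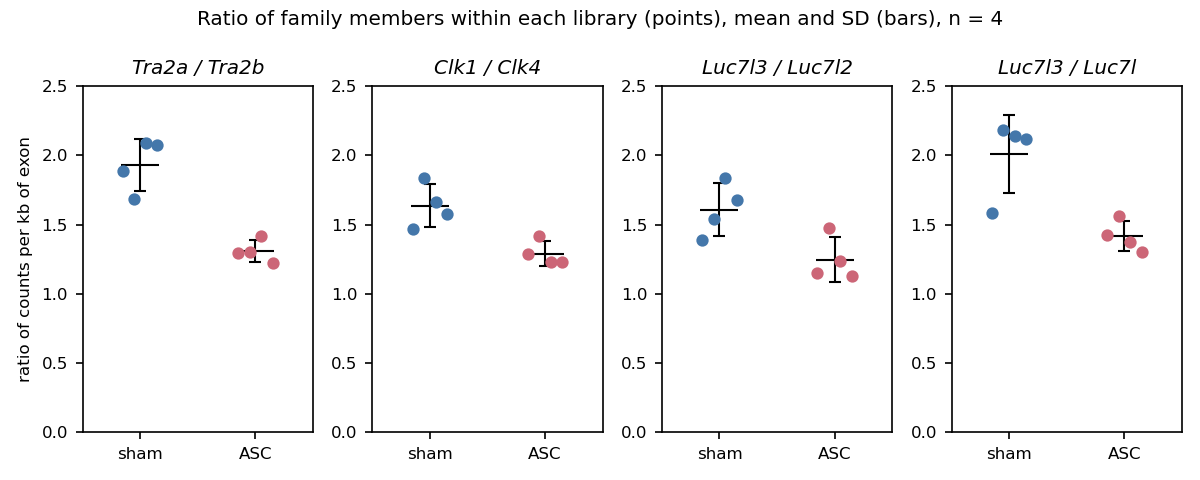
Ratio of counts per kb of exon between 2 genes of a family (vertical axis) in each of the 4 sham and 4 ASC libraries (points), with mean and SD. Tra2a over Tra2b, Clk1 over Clk4 and Luc7l3 over Luc7l do not overlap between groups, while Luc7l3 over Luc7l2 does. Each ratio sets a gene called lower over a relative that was not called, and no ratio was tested.

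Among the 10 SR proteins none passed the adjusted threshold in edgeR, while DESeq2 called Srsf1 and limma-voom called none. In edgeR 5 were lower and 0 higher at an unadjusted p under 0.05, where 7.9% and 6.82% of all tested genes were. The log2 fold changes of the 10 ran from -0.36 to 0.09, with a median of -0.21. Of the 10, 9 were below 0, against 48.6% of all tested genes. As for the whole list, nothing is read from these counts, since the members were chosen with this contrast known. Srsf1, the founding SR protein, had 157.1, 166.8, 167.3 and 141.9 CPM in sham 1 to 4 and 126.0, 134.9, 127.1 and 107.9 CPM in ASC 1 to 4. Its groups did not overlap (log2 fold change -0.35, SE 0.10, adjusted p = 0.12 in edgeR and 0.0285 in DESeq2). Srsf3, the smallest SR protein, which also links splicing to export of RNA, had 209.4, 233.2, 189.8 and 226.5 CPM in sham 1 to 4 and 194.1, 155.9, 166.6 and 155.0 CPM in ASC 1 to 4. Here ASC 1 lay above sham 3 (log2 fold change -0.36, SE 0.11, adjusted p = 0.145).

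Srsf7, a zinc knuckle SR protein that shares sequence with Srsf3, was at 69.3, 85.1, 79.5 and 75.3 CPM in sham 1 to 4 and at 64.3, 58.5, 70.4 and 61.8 CPM in ASC 1 to 4. The groups overlapped at sham 1 and ASC 3 (log2 fold change -0.28, SE 0.09, adjusted p = 0.203). Srsf6 had 202 to 227 CPM in the sham libraries and 167 to 197 CPM in ASC, and Srsf2 133 to 147 and 105 to 131 CPM. Both were separate between groups, with log2 fold changes of -0.24 (adjusted p = 0.256) and -0.22 (adjusted p = 0.306). Srsf2 shares 25.3% of its exon length with genes on the opposite strand.

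Srsf5 was the most abundant SR protein. Its levels were 326.0, 237.4, 233.8 and 266.9 CPM in sham 1 to 4 and 222.0, 222.0, 244.8 and 235.8 CPM in ASC 1 to 4. Sham 1 stood above the rest and the other libraries overlapped (log2 fold change -0.20, interval -0.46 to 0.05). Without sham 1 the log2 fold change was -0.09. The remaining SR proteins were Srsf10 (-0.11), a repressor when dephosphorylated, Srsf11 (-0.05), Srsf9 (-0.03) and Srsf4 (0.09), and all 4 overlapped between groups. Srsf4 is the least abundant member by CPM and shares 43.0% of its exon length with a gene on the opposite strand.

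**Figure D3:**
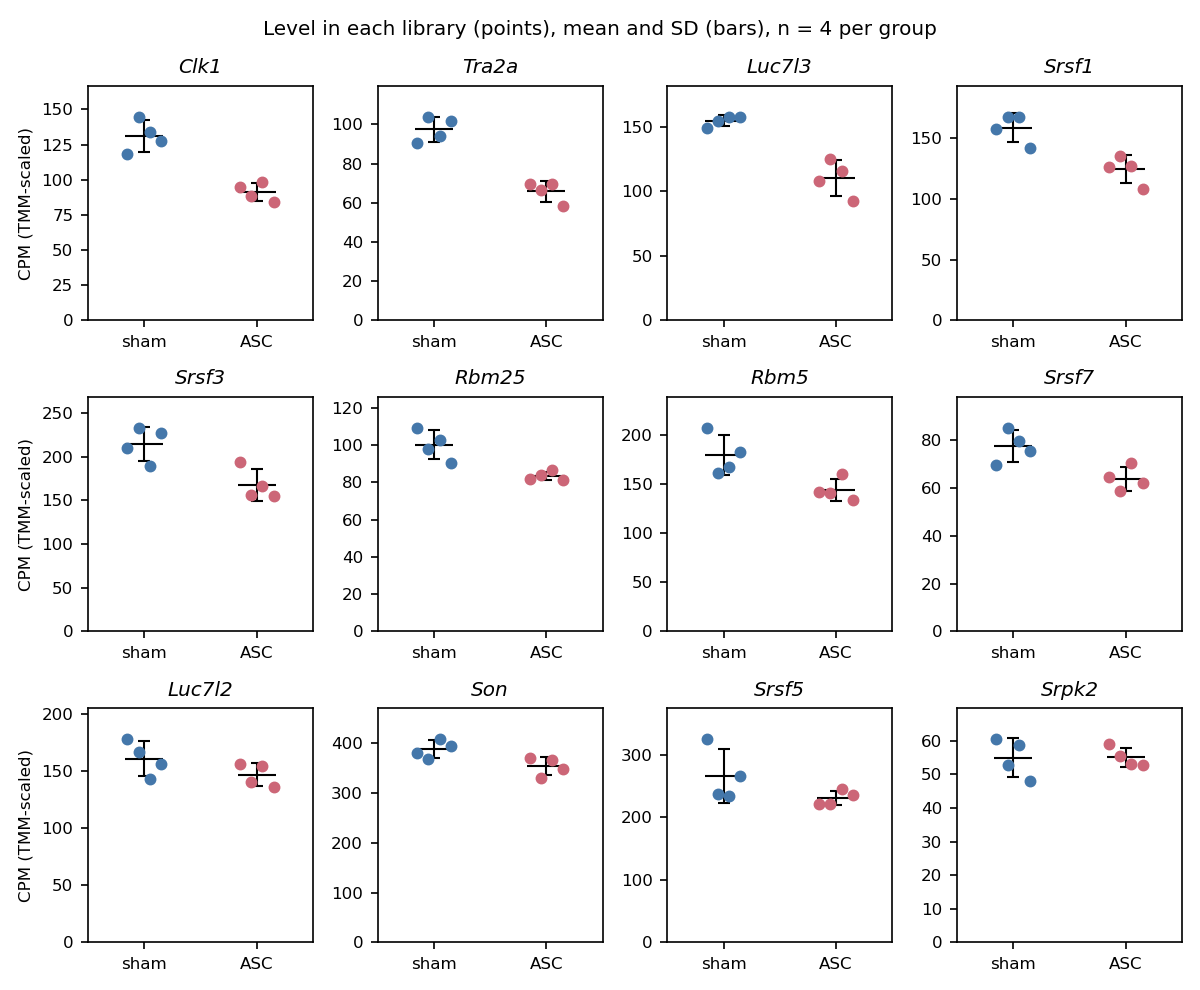
Level in CPM (vertical axis, from 0) of 12 members in the 4 sham and 4 ASC libraries (points), with mean and SD (bars). Clk1, Tra2a, Luc7l3, Srsf1, Rbm25 and Rbm5 have every ASC library below every sham library, and Srpk2 has overlapping groups.

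The 10 other RS-rich and speckle proteins had a median log2 fold change of -0.13. None passed edgeR's adjusted threshold, and neither DESeq2 nor limma-voom called any. In edgeR 3 were lower and 0 higher at an unadjusted p under 0.05, where 7.9% and 6.82% of all tested genes were. Nothing is read from these counts either. Rbm5, a regulator of exon choice in apoptosis genes, had 207.6, 161.5, 167.4 and 182.8 CPM in sham 1 to 4 and 142.0, 140.6, 160.1 and 134.0 CPM in ASC 1 to 4. The lowest sham and highest ASC library were close, but the groups did not overlap (log2 fold change -0.32, SE 0.10, adjusted p = 0.187). Rbm25, a U1-associated protein, had 109.4, 98.0, 102.7 and 90.7 CPM in sham 1 to 4 and 81.9, 84.1, 86.4 and 81.5 CPM in ASC 1 to 4 (log2 fold change -0.26, SE 0.09, adjusted p = 0.18). All ASC libraries again lay below sham. Pnn, pinin, which binds the exon junction complex and sits at cell junctions as well, was at -0.25 with overlapping groups, because ASC 2 at 68.9 CPM exceeded 2 sham libraries.

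Son, the large scaffold of nuclear speckles, was measured at 381.2, 368.6, 409.6 and 395.5 CPM in sham 1 to 4 and at 369.6, 331.1, 366.5 and 348.1 CPM in ASC 1 to 4. The groups overlapped by a single pair of libraries (log2 fold change -0.14, interval -0.34 to 0.07). Srrm2, the other speckle scaffold, was at -0.18 (interval -0.45 to 0.09) and varied among sham libraries from 308 to 450 CPM; its log2 fold change was -0.28 without sham 2 and -0.11 without sham 3. Rbm39, a U2AF-related factor, had separate groups with a small difference, 209 to 220 CPM in sham and 187 to 208 CPM in ASC (log2 fold change -0.12, adjusted p = 0.568). Acin1 (-0.03), Sfswap (0.00), Srrm1 (0.07) and U2af2 (0.14), the large subunit of the factor that binds the polypyrimidine tract, overlapped between groups.

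Across the list, 9 of 31 members had all ASC libraries below all sham libraries, and 0 had them above. Over all tested genes 5.67% were separate with ASC lower and 3.39% with ASC higher, and 5.05% with ASC lower among genes at least as abundant as the least abundant member. Besides Tra2a, Clk1, Luc7l3, Srsf1, Rbm5 and Rbm25 these were Srsf2, Srsf6 and Rbm39. The 31 genes together summed to 3946 ± 117 CPM in sham and 3464 ± 136 CPM in ASC (SD, n = 4 each). In single libraries the sums were 4111, 3843, 3939 and 3891 CPM in sham 1 to 4 and 3531, 3486, 3570 and 3267 CPM in ASC 1 to 4.

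The libraries differed in how far the list as a whole lay from the sham mean. The median deviation of the members in log2 CPM was -0.07, -0.12, -0.09 and -0.21 in ASC 1 to 4, and between -0.03 and 0.03 in the sham libraries. Over all tested genes the median deviation was -0.010, 0.012, 0.012 and 0.015 in ASC 1 to 4. In ASC 4, 28 of the 31 genes were below their sham mean, against 22, 22 and 23 in ASC 1, ASC 2 and ASC 3. The share of all tested genes below their sham mean was not counted, so nothing is read from these counts. ASC 4 also had the highest summed red cell, pigment, leukocyte, corneal epithelial and keratocyte markers (370.2, 656, 216, 958 and 1264 CPM). Its lens epithelial sum was the lowest of the ASC libraries (31165 CPM). Pax6 and Foxe3 are a small part of that sum, which includes the crystallin Cryab, so it need not follow epithelial content. The part of these markers in the low values of ASC 4 was not tested. After each gene's group mean was removed, Clk1 and Tra2a deviated together over the 8 libraries (Pearson r = 0.81), as did Tra2a and Luc7l3 (r = 0.64), and Clk1 and Luc7l3 less so (r = 0.39). These correlations share libraries and scaling and are a description only. No other pairs of genes were correlated for reference, so whether these values are unusual was not tested.

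**Figure D4:**
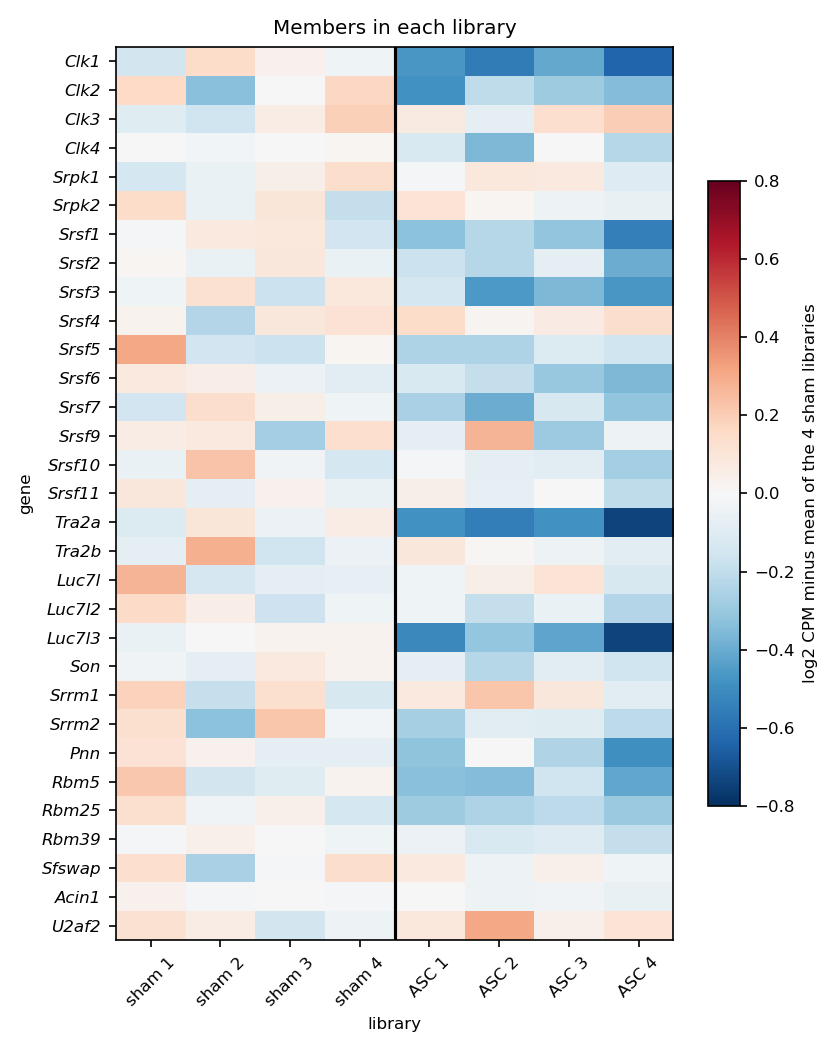
Log2 CPM of each of the 31 genes (rows) in each of the 8 libraries (columns) minus the mean of the 4 sham libraries; blue is lower and red higher. Clk1, Tra2a and Luc7l3 are blue in all 4 ASC libraries, and ASC 4 has 28 of 31 genes below the sham mean.

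Levels can be compared between genes only per length, here in CPM per kb of annotated exon, an approximate length since the transcripts in use are not known. In sham, Srsf5 was the highest at 66.7 ± 10.7 CPM per kb, followed by Srsf2 at 46.7 ± 2.22 and Srsf6 at 44.7 ± 2.46, whose spreads overlap. The lowest were Srpk1 at 3.35 ± 0.288, Srpk2 at 3.95 ± 0.416 and Clk3 at 4.50 ± 0.501 CPM per kb, and neighbours in this order differed by less than the sum of their SDs. Clk1 at 16.1 ± 1.38 CPM per kb was the highest kinase, above Clk4 at 9.86 ± 0.116. Tra2a stood at 14.04 ± 0.91 CPM per kb in sham and 9.49 in ASC, and Tra2b at 7.33 ± 1.05 in sham and 7.25 in ASC. By average CPM, which is not corrected for length, Luc7l3, Clk1 and Tra2a ranked 1, 2 and 5 among the 62 genes called lower. With the largest fall first, the same 3 genes ranked 54, 52 and 46 of the 62. By p in edgeR, smallest first, they ranked 55, 29 and 15.

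Other genes of the splicing pathway were taken from 6 lists, and 170 of 173 symbols matched. Of 167 tested, 0 passed in edgeR, 1 in DESeq2 and 0 in limma-voom. In edgeR 19 were lower and 7 higher at an unadjusted p under 0.05, where 7.9% and 6.82% of all tested genes were. These shares also stand beside the counts at that level for each list below. The gene called by DESeq2, named after its values were seen, was Pnisr, a speckle protein rich in RS dipeptides. Its level was 161 ± 3.03 CPM in the sham and 120 ± 12.4 CPM in the ASC libraries, with all ASC libraries lower (log2 fold change -0.42, SE 0.09, adjusted p = 0.0595 in edgeR). With upper quartile scaling it passed in edgeR (adjusted p = 0.0435).

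The 40 other SR-related genes had a median log2 fold change of -0.06, with 9 lower and 0 higher at an unadjusted p under 0.05. Their most abundant members were Rsrp1, an arginine-serine-rich protein (-0.49, SE 0.16, adjusted p = 0.182), and Snrnp70, the U1-70K protein (-0.17). Of 17 other kinases, phosphatases, cyclins and partners of SR proteins, 3 were lower and 2 higher at that level, with a median of -0.15. The chaperone Hspa8, which binds SR kinases, had 1077 ± 108 CPM in the sham libraries and 1484 ± 357 CPM in ASC (0.46, SE 0.17, adjusted p = 0.235), and the phosphatase subunit Ppp1ca was at 0.16.

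The 28 hnRNP genes, often antagonists of SR proteins at exons, had a median of -0.03, with Hnrnpa2b1 at -0.13 and Hnrnpk at 0.04. The 40 core spliceosome genes had a median of 0.02, with Prpf8 at 0.10 and Sf3b1 at -0.01. The 25 tissue splicing regulators had a median of 0.00, with Celf1 at -0.21 and Msi2 at 0.05. The 17 exon junction and nonsense-mediated decay genes, a pathway that degrades poison exon forms of SR transcripts, had a median of -0.06, with Smg1 at -0.18. In each of these 4 lists 0 genes passed in edgeR, DESeq2 or limma-voom. In edgeR 4, 4, 3 and 1 had an unadjusted p under 0.05 in either direction, as did 2335 of all 15857 tested genes. The difference between any of these lists and the 31 members was not tested.

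**Figure D5:**
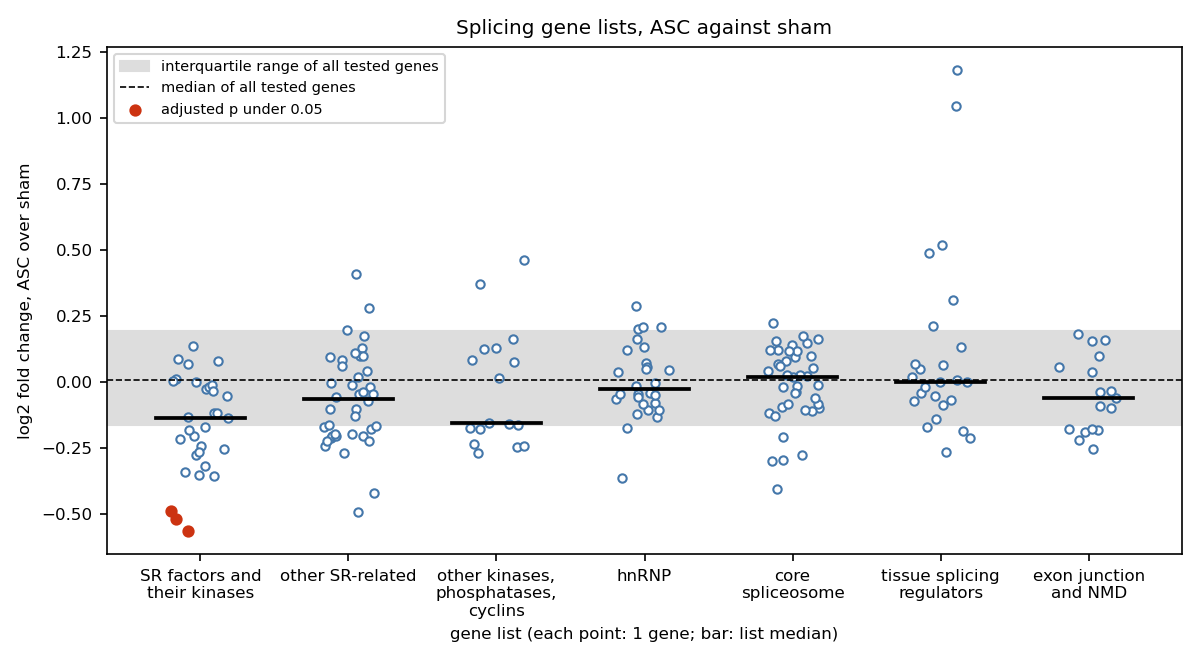
Log2 fold change of ASC over sham (vertical axis) for each tested gene of the 31 members and 6 other splicing lists (horizontal axis), with list medians (bars); the grey band is the interquartile range of all tested genes, -0.16 to 0.19. Filled red points passed an adjusted p of 0.05 and are Tra2a, Clk1 and Luc7l3.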

How the data were processed

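The authors deposited 1 table of raw read counts per gene, 1 column per library. Per the submitters' processing notes, CASAVA, fastp, HISAT2 2.0.5 and featureCounts 1.5.0-p3 were used; the build, annotation, strand setting and handling of multi-mapping reads are not given in the sources used for this text. Poly-A RNA was sequenced, per the labels' protocols. In R 4.3.3, edgeR 4.0.16 was used with filterByExpr, TMM scaling and its robust quasi-likelihood test between the groups, adjusted over 15857 tested genes. Levels are TMM-scaled CPM, with a prior count of 2 on the log2 scale. Exon lengths came from GENCODE M21. The SE is the log2 fold change divided by the square root of F. DESeq2 1.42.0, limma-voom (limma 3.58.1), other scalings and filters, and left-out libraries were alternatives. The fit was tested on simulated data. Members and lists were chosen with earlier results of these data known. Values per library are given for members past the threshold, the 8 with the smallest p and the most abundant of each role. From each other list the members past the threshold or, with none, the 2 most abundant are named, except 1 that is not reported here. Protein sequences were not used here. Within groups, library pairs differed far beyond counting noise (chi-square per degree of freedom of at least 23.5).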

Additional observations from a re-analysis of the deposited data

How the results depend on the processing

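The number of genes past the threshold, 162 over all tested genes, was 593 with DESeq2, 712 with no low-count filter, 44 at a threshold of 0.01, 42 without ASC 1 and ASC 4 together (chosen after seeing the data), and 56 to 228 with 1 library left out. The 3 members called lower became 0 at a threshold of 0.01, 0 without ASC 1 and ASC 4 together, and 2 with library totals alone. With 1 library left out they became 0 to 3, and only the removal of ASC 2 kept all 3. Single removals ended the call of Tra2a 1 time, that of Clk1 6 times and that of Luc7l3 7 times. The cause was not tested. Of the other splicing genes, 1 passed with DESeq2, 1 with upper quartile scaling and 3 with no low-count filter (Pnisr, Rsrp1 and Hspa8). Library totals alone gave 70 lower and 75 higher genes in place of 62 and 100. They moved the median of all genes from 0.01 to -0.12 and that of the members from -0.14 to -0.264, so that the gap between the medians was -0.14 and -0.15. Under that scaling 30 of 31 members were negative, against 24. The replicate numbers are not stated to mark a shared animal or day, and same-numbered libraries correlated at -0.09 to 0.22 after group means were removed. With the replicate number as a block, 1 member was called, Tra2a (adjusted p = 0.0345), with Clk1 at 0.0505 and Luc7l3 at 0.0736; all genes gave 39 lower and 130 higher. Over 19 alternatives the log2 fold change was -0.69 to -0.51 for Tra2a, -0.65 to -0.47 for Clk1 and -0.61 to -0.37 for Luc7l3. No member was called higher in any alternative run. Each member had 320 or more counts in every library; how much of its spread is counting error was not separated.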
